A study of Mus musculus with 4 samples.

Results

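The tubulin genes of the IMP2 cluster list are those whose symbol starts with Tuba or Tubb followed by a digit, the genes of alpha- and beta-tubulin. The rule found 3 genes, Tuba1a, Tubb2b and Tubb5, among 761 listed genes, and they held 17 of 1828 distinct clusters. IMP2 (gene Igf2bp2) is an RNA-binding protein, and HITS-CLIP crosslinks such a protein to RNA with ultraviolet light, immunoprecipitates it and sequences the RNA fragments that remain attached. The RNA came from embryonic brain tissue of Swiss Webster mice at E14, irradiated at 254 nm, with benzonase as the nuclease. The labels give no genotype or treatment that sets the 4 libraries apart. Of these libraries 2 carry R and 2 carry M in their titles, letters the labels do not explain, and antibodies to IMP2 raised in mouse and in rabbit were used, per the labels' protocols. A single list stood for all of them, so no value below has a replicate error and no test between libraries could be made. No input or control immunoprecipitation was analysed here.

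Alpha- and beta-tubulin pair into the dimers from which microtubules are built, and growing axons need a large supply of both. Tuba1a is a main alpha-tubulin gene of newborn neurons, and changes in it disturb neuronal migration. Tubb5 encodes a widely made beta-tubulin that is abundant in the embryonic brain, and Tubb2b a beta-tubulin of young neurons. Cells also adjust tubulin mRNA to the amount of free dimer: the factor TTC5 recognises the first residues of the new tubulin chain on the ribosome, and the mRNA is then degraded. Proteins of the IGF2BP family, to which IMP2 belongs, bind mRNAs and affect their stability, transport and translation.

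Tubb5 had clusters spread from its 5' UTR to its 3' UTR, Tuba1a carried a single cluster in each region, and Tubb2b had 1 cluster in its coding sequence (CDS). The height of a cluster, read as the largest number of overlapping tags, was at most 59 in Tubb5, 40 in Tuba1a and 28 in Tubb2b. The median height over all clusters was 30 (interquartile range 24 to 39). The RefSeq table of GRCm38 holds 15 protein-coding genes that fit the symbol rule. Listed were 1 of 7 alpha-tubulin genes and 2 of 8 beta-tubulin genes, 20% together (exact Clopper-Pearson 95% interval 4.33 to 48.1). Of all 21900 protein-coding genes, 3.47% were listed. The share rests on 3 genes, and the members were chosen with these data known, so it was not tested. Not listed were Tuba1b, Tuba1c, Tuba3a, Tuba3b, Tuba4a, Tuba8, Tubb1, Tubb2a, Tubb3, Tubb4a, Tubb4b and Tubb6. Among them Tubb3 is widely used as a marker of young neurons. The lowest height in the list was 18 and the lowest fold 2, so weaker clusters in these genes would not appear, and absence from the list does not show that IMP2 left an mRNA unbound.

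**Figure D1:**
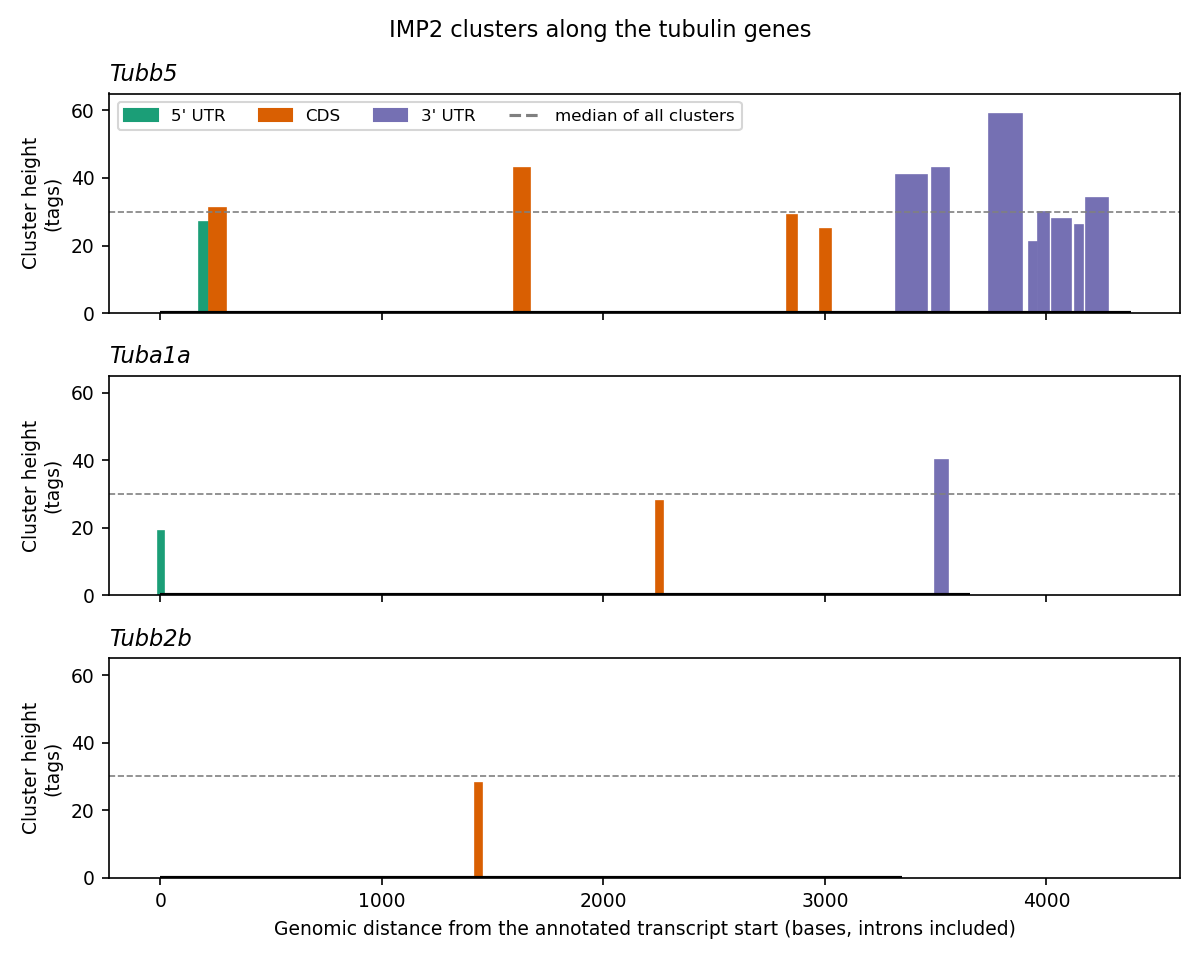
Height of each cluster (vertical axis, tags) against the distance of its bases from the annotated transcript start (horizontal axis, genomic bases with introns) in Tubb5, Tuba1a and Tubb2b. Bars span the cluster and are coloured by region, the black line is the transcript and the dashed line is the median of all clusters (30). The 8 clusters in the 3' UTR of Tubb5 lie close together. The 3 clusters of Tuba1a, 1 in each region, are separated by 2219 and 1228 genomic bases. Outside its 3' UTR, Tubb5 also has gaps of 1300 and 1162 bases.

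The 5'-most cluster of Tuba1a lay across the annotated start of the transcript, and the bases around that start are printed because the cluster reaches 12 bases upstream of it. The cluster was on chromosome 15 at 98783916 to 98783944 (mm9, minus strand), 29 bases wide, and covered the first 17 of the 48 bases of the deposited 5' UTR interval. A genome of this build was not used here. The same 29 positions relative to the start were therefore taken from RefSeq windows of GRCm38.p6 (250 bases before to 50 after each start), which were matched for 13 of the 15 genes and 2 of the 3 members. The transcript span of Tuba1a is 3655 bases in both builds. The letters AT, with which a start codon begins, follow base 48 after the start in its RefSeq window, where the deposited 5' UTR interval ends. Lower case marks the 12 bases before the annotated start and capitals the 17 bases from the start on, 5′ to 3′. The Tuba1a stretch is chr15:98953485-98953513 (minus strand), Tuba1b chr15:98934374-98934402 (minus strand), Tuba1c chr15:99029879-99029907 (plus strand) and Tubb5 chr17:35838285-35838313 (minus strand), all on GRCm38.p6.
Tuba1a: taagaagcaacaCCTCCTCCTCGCCTCCG
Tuba1b: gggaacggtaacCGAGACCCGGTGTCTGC
Tuba1c: tcttggccccctGAAGCTGTCGCAGTCAC
Tubb5: cgcctatctcccGCCCCCGGCCGCGCGAA

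These stretches were compared with Tuba1a base by base. At the same positions, Tuba1b shared 6 of 29 bases with Tuba1a, Tuba1c shared 7 and Tubb5 shared 9. Over the other 12 tubulin genes with a window the range was 4 to 12. Unrelated stretches were not compared in this way, so these counts show neither likeness nor divergence. Tuba1a begins with 10 bases that are C or T, read from the annotated start on the sense strand. A run at least that long opened 247 of 32851 RefSeq windows (0.752%). Among the other tubulin genes the longest run was 7, in Tuba8, while Tuba1b had 1 and Tuba1c and Tubb5 had 0. The run was chosen after the letters were seen and is a description of this stretch, not a binding site.

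Tubulin clusters were spread over 5' UTRs, coding sequence and 3' UTRs. By the deposited region, 9 of the 17 were in a 3' UTR (52.9%, exact 95% interval 27.8 to 77.0), 6 in the CDS (35.3%, 14.2 to 61.7) and 2 in a 5' UTR (11.8%, 1.46 to 36.4). Of all 1828 clusters, 94.1% were in a 3' UTR, 5.36% in the CDS and 0.492% in a 5' UTR. Thus 8 of 17 tubulin clusters (47.1%, 23.0 to 72.2) were outside the 3' UTR, beside 5.85% over the list. Among clusters taller than the median height these shares were 28.6% (2 of 7, both in the CDS) and 3.62%, and the 5' UTR share was 0%. By bases covered in place of clusters, counting each cluster only within its assigned region, the 5' UTR share of the tubulin genes was 5.50%. This leaves out 28 bases of 5' UTR under the Tubb5 cluster over the start codon, which was assigned to the CDS. The intervals treat clusters as independent, which they are not, since 13 come from Tubb5 alone. They cover counting error only, and no test was made. Tubulin genes held 2 of the 9 clusters in 5' UTRs (22.2%) and 6 of the 98 in the CDS (6.12%), beside 0.93% of all clusters. The 2 in 5' UTRs were 1 each in Tuba1a and Tubb5.

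**Figure D2:**
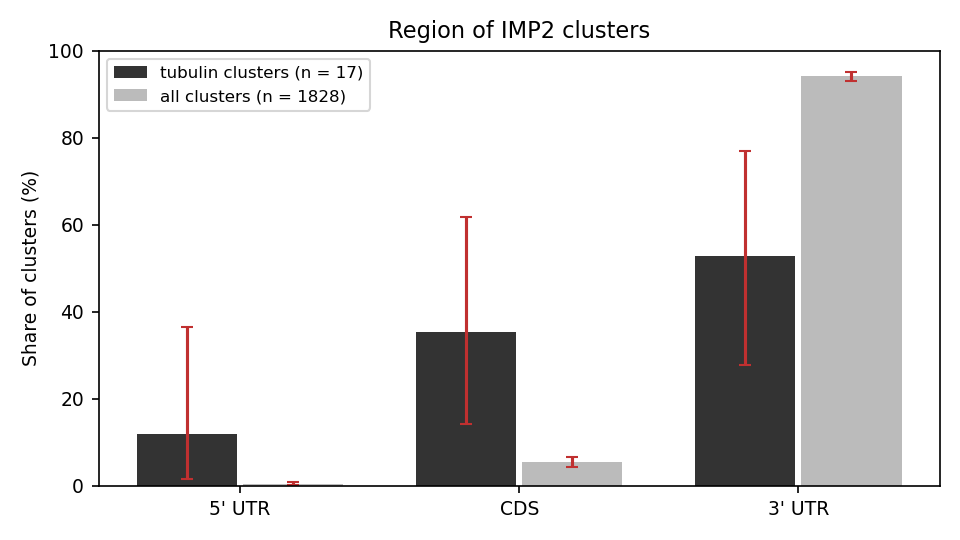
Share of clusters (vertical axis, percent) in the 5' UTR, CDS and 3' UTR for the 17 tubulin clusters and all 1828 clusters; error bars are exact Clopper-Pearson 95% intervals that treat clusters as independent. The tubulin clusters stand at 35.3% in the CDS, where the whole list stands at 5.36%.

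At the level of genes, Tuba1a and Tubb5 were 2 of 4 genes with clusters in all 3 regions (0.526% of listed genes). The others were BC005537 and Polr2m, named after their counts were seen; the cluster of Polr2m counted in a 5' UTR lies in the CDS of another of its transcripts. At least 1 CDS cluster was held by all 3 tubulin genes, beside 68 of 761 listed genes (8.94%). A 5' UTR cluster was held by 2 of the 3, beside 8 of 761 (1.05%). Both of these clusters were low in fold. In Tuba1a the height was 19 and the fold 2.59, and 2.13% and 1.91% of all clusters were lower. In Tubb5 the values were 27 and 2.88, with 34.6% and 4.65% lower. The count of genes with all 3 regions rests on these clusters. Tubb5, with 4 CDS clusters, was 1 of 5 genes with at least that many. Coding sequences of tubulin genes are near-identical over long stretches. No label or header says how tags that match several of them were placed, so the gene behind a CDS cluster is uncertain. None of the 17 clusters was also assigned to another gene in the list. That count compares positions only, and paralogs at other positions cannot share a cluster, so it does not show how such tags were placed.

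Tubb5 had 13 clusters, a number that ranked 6 among the 761 genes, where the median was 1. Its highest cluster ranked 54 by height, a place shared by 4 genes, Tubb5 included, and its highest fold ranked 289. The 8 clusters in the 3' UTR covered 674 of its 1062 bases, or 63.5%, which ranked 8 among 729 genes with a 3' UTR cluster (median 4.70%). This is 7.53 clusters per 1000 bases of 3' UTR, the rank 2 value among those genes. The 3' UTR of Tubb5 was shorter than the median of these genes (1998 bases). Neighbouring clusters were separated by 3 to 31 bases at 6 of the 7 gaps, and by 178 bases at the other. When clusters at most 50 bases apart were joined, the 13 became 6, so the count depends on how closely neighbouring clusters are split. The rank of 6 by number and of 2 by clusters per 1000 bases were taken before joining and share this limit.

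**Figure D3:**
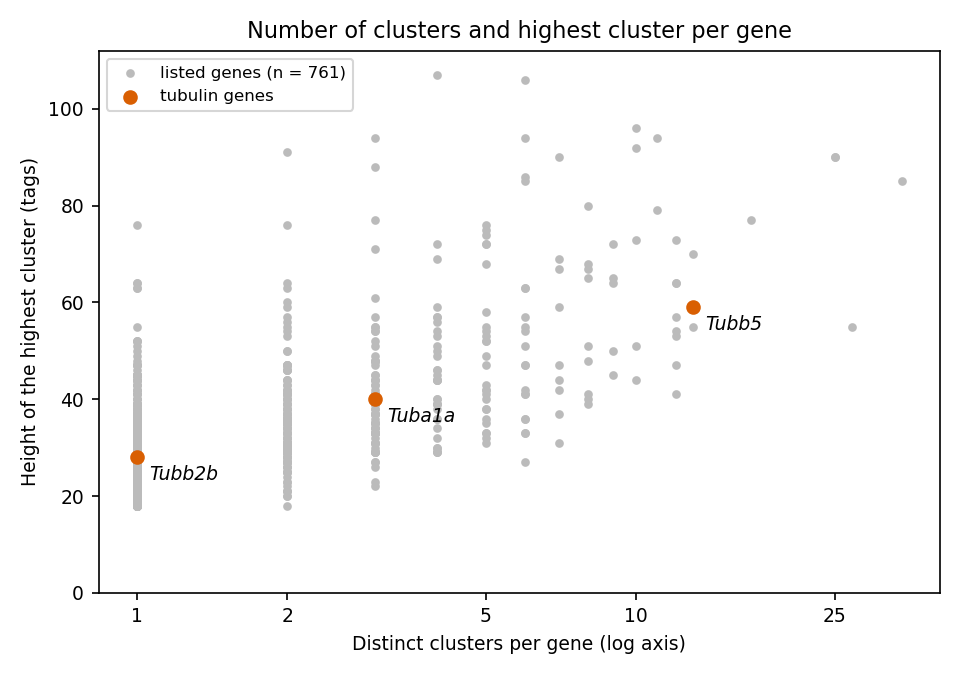
Number of distinct clusters (horizontal axis, log scale) against the height of the highest cluster (vertical axis, tags) for the 761 listed genes, with the tubulin genes in orange. Tubb5 stands at 13 clusters and a height of 59, Tuba1a at 3 and 40, and Tubb2b at 1 and 28.

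At the 5' end of Tubb5, a pair of clusters lay around the start codon. The cluster in the 5' UTR had a height of 27 and a fold of 2.88 on chromosome 17 at 35975033 to 35975074 (mm9, minus strand). It covered bases 173 to 214 of the 248-base interval. Only 6 bases farther downstream, a cluster of height 31 and fold 3.35 lay at 35974949 to 35975026. The latter took in the last 28 bases of the 5' UTR and bases 1 to 50 of the first coding interval, which is 57 bases long. It therefore contained the start codon and the codons that follow it. Those codons encode the residues that TTC5 recognises in beta-tubulin, a property of the protein chain on which these data hold no measurement.

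The other 3 CDS clusters of Tubb5 were spread over its coding intervals. The highest had a height of 43 and a fold of 5.05 at 35973579 to 35973648, in a coding interval of 109 bases, and ranked 6 by height among the 98 CDS clusters of the list. The clusters at 35972375 to 35972416 (height 29, fold 3.23) and 35972218 to 35972269 (height 25, fold 2.93) lay in the coding interval of 1058 bases that ends at the stop codon. All 4 CDS clusters were between 25 and 43 in height, and the median over the CDS clusters of the list was 26.

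In the 3' UTR, the tallest clusters of Tubb5 lay on the side nearer the stop codon. The first began at base 3 after the coding interval (35971787 to 35971924), with a height of 41 and a fold of 4.71. The next had a height of 43 and a fold of 5.31 at 35971685 to 35971764. The highest cluster of any tubulin gene followed at 35971359 to 35971506, with a height of 59 and a fold of 7.28. It spanned bases 421 to 568 of the 3' UTR, and 94.3% of all clusters were lower. Its width of 148 bases also exceeded that of 94.2% of clusters.

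The remaining 5 clusters of the 3' UTR were lower. From the 5' to the 3' side their heights were 21, 30, 28, 26 and 34, and the last, at 35970968 to 35971066, ended 103 bases before the end of the transcript. The cluster of height 21 is the lowest in Tubb5, and only the last of these 5 was taller than the median of the list.

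The authors' fold ordered the Tubb5 clusters differently from their height. The last cluster, with a height of 34, had a fold of 6.73, while the first cluster of the 3' UTR had a larger height of 41 and a fold of 4.71. Height divided by fold, the reference level the fold implies, was 9.38 in the 5' UTR and 8.51 to 9.25 in the CDS. Within the 3' UTR it was 8.70 nearest the stop codon and 5.05 at the last cluster. The header does not define this level, and its median over the list was 5.96. Of the 17 tubulin clusters, 12 had an implied level above 7.31, the upper quartile of the list. Accordingly, 15 of the 17 had a fold below the median of the list (5.40), although 7 of 17 were taller than the median height, a height that 46.9% of all clusters exceeded. No mRNA level was used here, so heights were not set against the abundance of the transcripts.

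**Figure D4:**
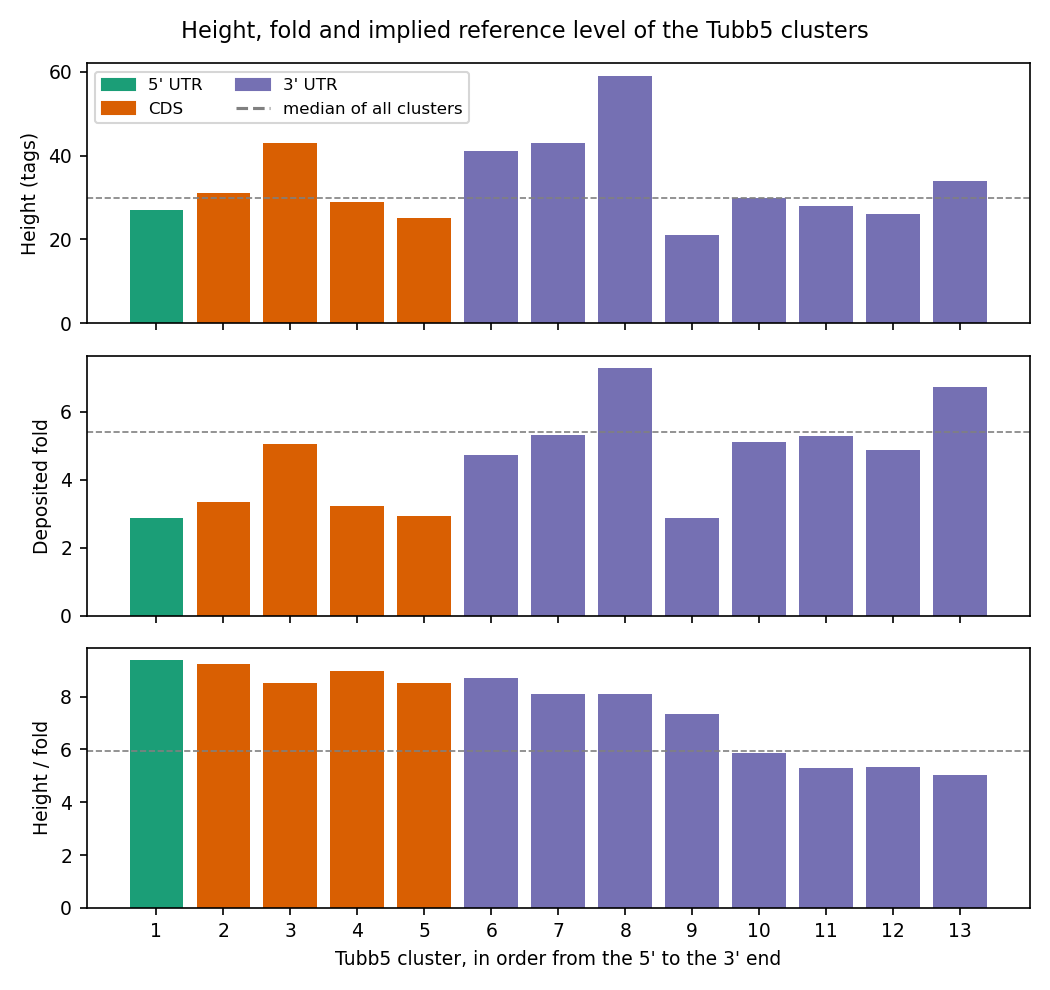
Height in tags, the authors' fold and their quotient (vertical axes) for the 13 Tubb5 clusters in order from the 5' to the 3' end (horizontal axis), coloured by region; dashed lines are the medians over all clusters (30, 5.40 and 5.96). Height peaks at 59 in cluster 8, while height divided by fold is 9.38 at the 5' end and 5.05 at the 3' end.

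Tuba1a had clusters at both ends of its mRNA and in between. The cluster over the transcript start had a fold of 2.59 and a height of 19, and the heights of the 9 clusters in 5' UTRs ranged from 19 to 37. The CDS cluster, at 98781665 to 98781696 on chromosome 15, had a height of 28 and a fold of 5.08 and was 32 bases wide. The highest cluster was in the 3' UTR at 98780377 to 98780436, with a height of 40 and a fold of 4.40, and 76.6% of all clusters were lower.

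The 3' UTR of Tuba1a is short. It measured 187 bases, 1 of only 3 under 200 bases among the 729 genes with a 3' UTR cluster. The single cluster spanned bases 29 to 88 and covered 32.1% of it, which ranked 42 among these genes. By height Tuba1a ranked 200 among the 761 genes, and by its highest fold 553.

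Tubb2b had the fewest clusters of the 3 genes and the lowest maximum. Its only cluster had a height of 28 and a fold of 3.69 on chromosome 13 at 34220772 to 34220804 (mm9, minus strand), 33 bases wide. It lay at bases 48 to 80 of a coding interval of 111 bases, whereas the CDS clusters of Tubb5 lay in intervals of 57, 109 and 1058 bases. Both its height and its fold were below the medians of the list (30 and 5.40), and no cluster of Tubb2b was listed in a UTR.

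Among the genes with region counts most like those of Tuba1a were the neurotrophin-receptor-interacting gene Maged1, BC005537 and the translation elongation factor gene Eef2. Each differed from it by 1 cluster in the summed counts of 5' UTR, CDS and 3' UTR, with the taller gene taken in ties. Other genes tied at that difference, Polr2m among them, and were left out because their highest clusters were lower. No gene came that close to Tubb5. Its nearest included the RNA-binding protein gene Hnrnpa0, the imprinted gene Mest and the G protein subunit gene Gnb1, each at a summed difference of 5. Other genes, some of them with CDS clusters, tied at 5 but had lower highest clusters. Hnrnpa0 and Gnb1 had 8 clusters in the 3' UTR and none elsewhere, and Mest had 6 with 2 in the CDS.

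Some genes that fold, modify and organise tubulin were also listed. Over 4 lists of such genes, 10 of 82 carried a cluster (12.2%, exact 95% interval 6.01 to 21.3, beside 3.47% of protein-coding genes). Of these 10, 0 had a cluster outside the 3' UTR, a count near the 9.46% of all listed genes (72 of 761) that had one. Proteins that bind the ends of microtubules, link them or sever them had 7 of 20. They included the rescue factor gene Clasp1 (height 54), the tumour suppressor gene Apc (43), Camsap2 (42), which caps minus ends, and the severing enzyme gene Spast (35, with 5 clusters). Folding factors had 2 of 22, the prefoldin subunit gene Vbp1 (31) and the chaperonin subunit gene Cct2 (22). Of 19 tubulin-modifying enzymes 1 was listed, the alpha-tubulin acetyltransferase gene Atat1 (35). None of 21 nucleation genes was listed, gamma-tubulin included (upper 95% limit 16.1%). These counts were not tested.

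Markers of several cell types were checked against the brain label, beside 3.47% of all protein-coding genes listed. Neuronal markers had 4 of 6 listed (Dcx, Stmn2, Map2 and Elavl3), progenitor markers 1 of 6, choroid plexus 1 of 3, erythroid cells 2 of 4 and meninges 2 of 3. Microglia (0 of 4) and endothelium (0 of 3) had none, as so few genes would at that share. The list shows binding above a threshold in whole brain tissue, so the cells in which the tubulin mRNAs were bound cannot be told apart, nor can fewer cells of a type from less RNA per cell.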

How the data were processed

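HITS-CLIP of IMP2 was analysed from 1 deposited list of clusters for 4 libraries. The submitters' processing notes name Bowtie, FastQC and the build mm9 and no version. The calling of peaks, the cut-offs, the placement of tags with several matches and any pooling of libraries were not given in the sources used. Cluster height, as deposited, is a signal (pileup) in whole numbers, and the deposited fold is a ratio to a level that the header leaves undefined, per the file headers. Depth per library is unknown, and PCR duplicates could not be checked.

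The 2865 lines were reduced to distinct clusters, with starts made 1-based. Each cluster took its deposited region (the widest overlap where transcripts differ). Transcripts were matched to RefSeq (GRCm38.p6) by accession (1088) or name (11), and no coordinate was converted between builds. Python 3.11.15, pandas 2.3.3 and SciPy 1.17.1 were used, and the reduction and joining steps were tested on simulated data. The genes named are every listed tubulin gene and up to 4 genes of each list, taken by their highest cluster. The 3 genes nearest in region counts to Tuba1a and to Tubb5 were also named, with ties settled by height. The members and lists were chosen with earlier results of these data known. Alternatives were other rules for a listed gene, joined clusters, taller clusters, other region rules, the median cluster, fold and the shortest 3' UTR interval.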

Additional observations from a re-analysis of the deposited data

How the results depend on the processing

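No paired analysis was possible because the list has no column for an individual library; for the same reason no replicate could be left out. The 3 tubulin genes listed became 2 with at least 2 clusters or with clusters taller than the median height, Tubb2b being lost in both, and stayed 3 with all tubulin superfamily symbols. The 17 clusters stayed 17 when touching clusters were joined, became 10 when those up to 50 bases apart were joined (Tubb5 6, Tuba1a 3, Tubb2b 1) and 7 among clusters taller than the median (Tubb5 6, Tuba1a 1, Tubb2b 0). Among these 7, the CDS share was 28.6%, the 3' UTR share 71.4% and the 5' UTR share 0%. Region by midpoint gave the main shares. Region by largest overlap did too, but the main rule already takes the widest overlap, so it could not differ. By bases covered, each cluster counted only within its assigned region, the 5' UTR, CDS and 3' UTR held 5.50%, 26.0% and 68.5%. With the median cluster in place of the highest, Tubb5 had a height of 30 and Tuba1a of 28. By fold, Tubb5 ranked 289 and Tuba1a 553 among listed genes. The 3' UTR coverage was equal with the shortest interval. Of the 10 listed genes of tubulin folding, modification, nucleation and plus ends, 7 had at least 2 clusters and 6 had a cluster taller than the median. Of all 761 listed genes, 419 had only 1 cluster. The median over genes of the highest cluster was 31, so most listed genes also had a cluster taller than the median height of 30. The number of tags per library is unknown, so the limit that depth sets is unknown too.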
